A study of Mus musculus with 20 samples.

Results

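Matrix proteases and their inhibitors were followed as 10 genes, Mmp9, Mmp12, Mmp14, Mmp19, Timp2, Adam8, Adam17, Plau, Plaur and Slpi, out of 16790 genes in the single-cell tables of the series. They were chosen by name, with earlier results of these data known. All 10 had a row in the table of cultured cells and in the table of tumor cells. The series holds 20 mouse samples. Single-cell RNA sequencing (scRNA-seq) was done on 2 libraries of B-MF, which are macrophage-like cells made from FACS-purified bone marrow (BM) B cells, on 2 libraries of Mo-MF, made from BM monocytes, and on cells FACS-purified as tumor-associated macrophages (TAM) from 4 mice with 4T1.2 breast cancer. Both cultures were kept for 7 days in medium with 50% conditioned medium of 4T1.2 mouse mammary cancer cells, so no library of untreated macrophages stands beside them. The tumors grew in BALB/c mice, the mice of the study were female and 8 to 12 weeks old, and for the B-cell cultures the study's methods name C57BL/CJ or BALB/CJ donors without saying which served here. The other 12 samples are ATAC-seq libraries, which map open chromatin, of cells sorted as CSF1R+ or CSF1R- out of the BM or the spleen of naïve animals, with 3 libraries per group. The labels call these cells macrophages, while the study's results describe them as B-cell precursors (BMBP).

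Matrix metalloproteinases (MMPs) are zinc enzymes that cut collagen, elastin and other proteins around cells, and macrophages and neutrophils are among their main sources in tumors. Tissue inhibitors of metalloproteinases (TIMPs) block them, and the TIMP2 protein also takes part in activating pro-MMP2 at the cell surface together with MMP14. ADAM proteases shed membrane proteins, and the plasminogen system, in which urokinase (Plau) binds its receptor (Plaur), makes plasmin at the cell surface. SLPI, the secretory leukocyte protease inhibitor, blocks elastase and cathepsin G of neutrophils.

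There were 20798 cultured cells and 10885 cells from tumors. The cells had a median of 18350 to 19469 corrected counts per cultured library and 7651 to 8266 per tumor library. The deposited values are counts corrected for depth by SCTransform and put on a log scale, and they were converted back, so a level below is the mean corrected count per cell of a library. A share is the percentage of cells with at least 1 corrected count. Levels are compared between libraries and cell groups for 1 gene at a time and not between genes. The 2 tables were normalized apart, so values of cultures and tumors are set side by side and were not tested against each other. The labels do not say whether the 2 libraries of each culture came from separate mice, so p-values measure the spread between these libraries only. Cells were clustered without the 10 genes and without the other genes of extracellular proteolysis listed below, and clusters were named from cell type markers. By these markers 99.1% and 99.5% of B-MF and 83.9% and 85.9% of Mo-MF cells were monocyte/macrophage-like. Neutrophil-like cells made up 10.5% and 9.41% of the Mo-MF libraries, 3 of 5237 cells of B-MF replicate 1 and 0 of 5326 cells of B-MF replicate 2, which allows a share of up to 0.0563%. Between libraries, 45 cell barcodes were shared among the cultures and 13 among the tumors, and these cells were kept.

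In the cultures, 9 of the 10 genes reached the filter on low values, a mean of 0.1, in both groups. Of these 9, B-MF had less than Mo-MF of 6 and more of none, by limma at an adjusted p of 0.05. Mmp14 reached the filter through its level in Mo-MF alone, and it was lower in B-MF in the fit with no filter. Of the 8633 genes tested, 16.9% were called lower in B-MF and 22.6% higher, and of the 8292 that reached the filter in both groups 15.6% and 22.5%. Over all cells and on the scale of log2(level + 0.1), the order by size of the difference was Mmp14, Slpi, Mmp9, Adam8, Mmp19, Mmp12 and Adam17. Timp2, Plau and Plaur did not pass the test. In the monocyte/macrophage-like clusters alone, Mmp9 came after Mmp12 in this order.

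Mmp14, also named MT1-MMP, is a membrane-anchored collagenase. Its level was 0.0342 and 0.0304 in the 2 B-MF libraries against 0.864 and 0.851 for Mo-MF. It was thus near 0 in both B-MF libraries, and both Mo-MF libraries were far above them, by 26.5-fold between the group means. On the scale of log2(level + 0.1) the difference, B-MF minus Mo-MF, was -2.86 (SE 0.0502 in the fit with the filter). The size of a difference from a level near 0 depends on the 0.1 added. Since Mmp14 reached the filter through Mo-MF alone, its p-value is taken from the fit with no filter on low values (adjusted p = 0.00188 by limma with Benjamini-Hochberg adjustment). Mmp9, gelatinase B, is stored in granules of neutrophils and is also made by macrophages. Levels of 0.332 and 0.279 in B-MF stood against 1.09 and 0.972 in Mo-MF. The log2 difference was -1.48 (SE 0.0772, adjusted p = 3.03e-06 by limma). The Mo-MF libraries also held the neutrophil-like cells, and the size of this difference changed without them, as given below.

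Mmp12, the macrophage elastase, was at 17.1 and 17.3 in B-MF against 21.3 and 22.4 in Mo-MF, so the groups were apart by 1.27-fold, far less than for Mmp14. The log2 difference was -0.34 (SE 0.0527, adjusted p = 0.00136 by limma). Mmp19, a less well known metalloproteinase of basement membrane and other matrix proteins, was at 0.483 and 0.449 in B-MF against 0.668 and 0.631 in Mo-MF. Its log2 difference was -0.41 (SE 0.0563, adjusted p = 7.78e-04 by limma). For all 4 MMPs, each B-MF library was below each Mo-MF library. How many of all genes had this order of levels was not counted. By share of positive cells, a different measure, the groups overlapped for Mmp12. Both Mo-MF libraries were higher by share for 26.0% of the genes tested.

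The 2 inhibitors differed from each other. Slpi was 0.365 and 0.324 in B-MF against 1.33 and 1.25 in Mo-MF, with a log2 difference of -1.65 (SE 0.0626, adjusted p = 4.94e-07 by limma). Timp2 was at 15.02 and 14.8 in B-MF against 13.5 and 13.8 in Mo-MF. Both B-MF libraries were higher, but by a log2 difference of 0.12 with a 95% interval of 0.01 to 0.24, and the adjusted p was 0.0832 by limma. When 1 library at a time was left out, the log2 difference of Timp2 was 0.11 to 0.14.

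Adam8, a sheddase of leukocytes, was at 4.75 and 4.84 in B-MF against 7.07 and 7.18 in Mo-MF. The groups did not overlap, and the log2 difference was -0.56 (SE 0.0496, adjusted p = 5.97e-05 by limma). Adam17, which releases TNF and other membrane proteins, was at 1.44 and 1.47 in B-MF against 1.64 and 1.63 in Mo-MF, with a log2 difference of -0.16 (SE 0.0492, adjusted p = 0.0321 by limma). The call of Adam17 was lost when either Mo-MF library was left out. Its log2 difference was -0.17 to -0.15 over the fits with 1 library left out. Of the plasminogen genes, Plau was at 3.03 and 3.096 in B-MF against 2.95 and 3.01 in Mo-MF, and the log2 difference was 0.04 with a 95% interval of -0.08 to 0.15 (adjusted p = 0.595 by limma). Plaur was at 0.586 and 0.497 in B-MF against 0.648 and 0.555 in Mo-MF, with overlapping groups, a log2 difference of -0.13 and a 95% interval of -0.33 to 0.07 (adjusted p = 0.267 by limma). Without B-MF replicate 1 the log2 difference of Plaur was -0.23, in a fit that holds no spread of B-MF.

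**Figure D1:**
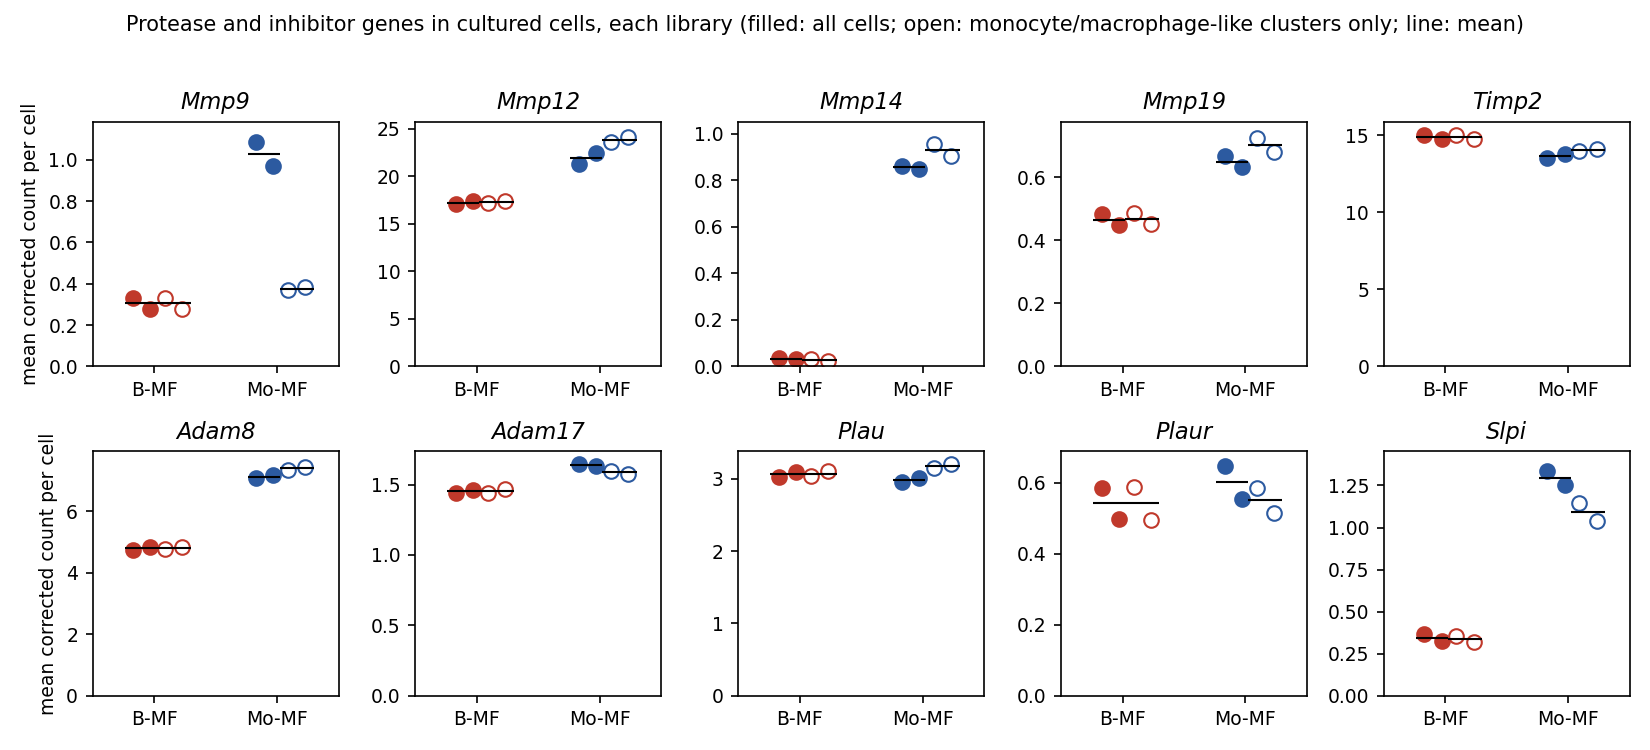
Mean corrected count per cell of the 10 genes in each cultured library, with 1 panel per gene and its own linear axis from 0, 2 B-MF and 2 Mo-MF libraries as points and the group mean as a line. Mmp14 lies at 0.0342 and 0.0304 in B-MF against 0.864 and 0.851 in Mo-MF, while the points of Plau and Plaur overlap or nearly meet.

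With the monocyte/macrophage-like clusters alone, the differences of Slpi (-1.45), Adam8 (-0.61), Mmp19 (-0.50) and Mmp12 (-0.46) on the log2 scale remained past the threshold of limma, and those of Mmp9 and Adam17 shrank. Mmp14 was at 0.0306 and 0.0253 in B-MF against 0.955 and 0.907 in Mo-MF (log2 difference -3.01), given as levels because it again reached the filter through Mo-MF alone. Mmp9 was then at 0.333 and 0.280 in B-MF against 0.369 and 0.383 in Mo-MF, and its log2 difference was -0.23 (adjusted p = 0.0300 by limma) in place of -1.48. In the neutrophil-like cells of the Mo-MF libraries the level of Mmp9 was 7.32 and 6.71, with counts in 87.1% and 87.6% of these cells. Without cluster 5 as well, whose leading genes are mostly mitochondrial, Mmp9 no longer passed (log2 difference -0.22, adjusted p = 0.0649 by limma), an alternative added after seeing the data. Adam17 did not pass within the macrophage-like clusters (log2 difference -0.12, adjusted p = 0.105 by limma). Slpi in these clusters was at 0.355 and 0.319 in B-MF against 1.15 and 1.04 in Mo-MF, and it was 3.09 and 3.27 in the neutrophil-like cells of Mo-MF.

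**Figure D2:**
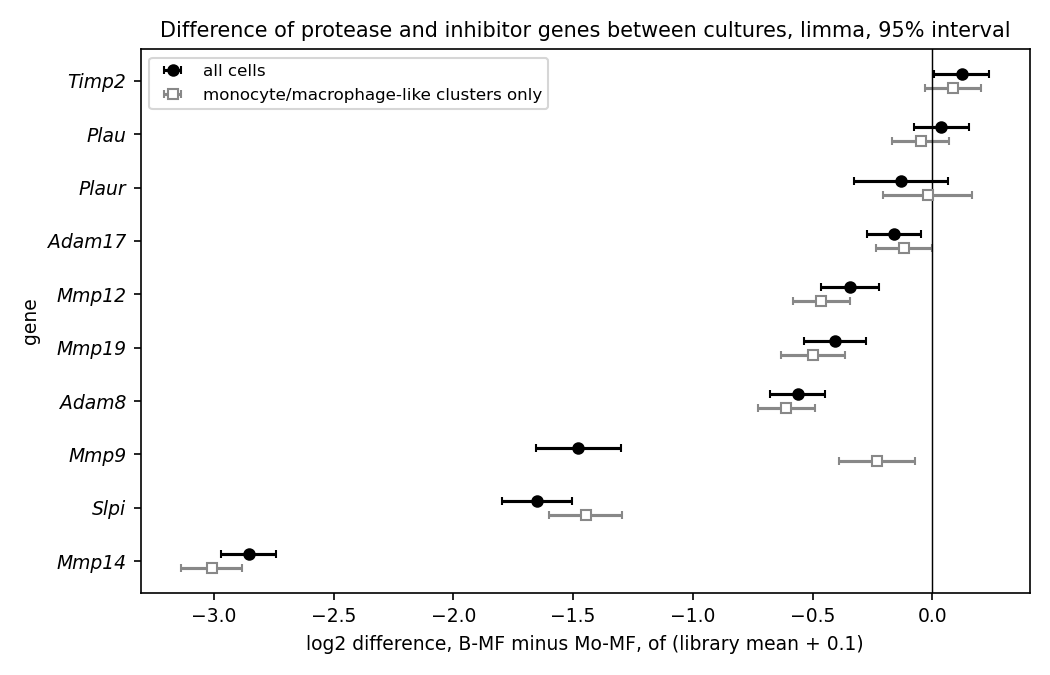
Log2 difference, B-MF minus Mo-MF, of each of the 10 genes with its 95% interval from limma, over all cells and over the monocyte/macrophage-like clusters, with a line at 0. Mmp9 moves from -1.48 to -0.23 between the 2 settings, while Mmp14 stays near -3 (-2.86 and -3.01). The intervals of Mmp14 come from fits whose filter it reached through Mo-MF alone and are not read as support.

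Mmp14 also differed between the cultures inside the clusters that both shared. In the cycling cluster 6 its level was 0.00844 and 0.00439 in B-MF against 0.197 and 0.265 in Mo-MF, over 178 to 237 cells per library. In the S-phase cluster 10 it was 0.0265 and 0.0690 in B-MF against 0.345 and 0.289 in Mo-MF, and in cluster 5 it was 0.0345 and 0.0133 against 0.329 and 0.333. In each of these 3 clusters both Mo-MF libraries were above both B-MF libraries. No test was made within single clusters. Part of the little Mmp14 in B-MF came from the unnamed cells, of which there were 46 and 29 and of which 21.7% and 31.0% had a count. Most cells of the unnamed cluster 15, led by Col1a2, Sparc and other genes of connective tissue, came from B-MF (15 and 10 of 26 cells), and in these 2 libraries the cluster had Mmp14 levels of 1.33 and 2.8 and Slpi levels of 2.8 and 3.4.

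The share of positive cells split the groups for 8 of the 10 genes, of which 7 were higher in both Mo-MF libraries and Timp2 was higher in both B-MF libraries. Among all genes tested, shares did not overlap and were higher in Mo-MF for 26.0% and higher in B-MF for 27.0%. With 2 against 2 libraries the exact two-sided permutation test cannot give less than p = 0.333, so shares are given as values. Mmp14 was found in 2.29% and 1.88% of B-MF cells against 41.4% and 41.2% of Mo-MF cells. In the neutrophil-like cluster 7 of the Mo-MF cultures, where Mmp14 was 0.0606 and 0.0200, the share was 1.55%, at a median of 15692 corrected counts against 19403 and 18350 in the B-MF libraries. Slpi was found in 13.9% and 12.6% of B-MF and 34.6% and 33.0% of Mo-MF cells, and Mmp9 in 13.1% and 11.4% against 22.1% and 21.6%. Mmp19 was found in 32.0% and 28.2% against 37.1% and 37.1%, and Adam17 in 72.3% and 69.0% against 77.9% and 77.2%. In cluster 7, Adam17 had a count in 90.1% of cells, Adam8 in 99.2% and Plau in 89.1%. Whether these cells make the 3 genes was not tested. Timp2 had a count in 99.1% to 99.7% of the cells of every library, but also in 100% of neutrophil-like cluster 7 and 95.3% of the 43 cells of the unnamed cluster 13, led by Igkc and Prss34, so these shares are not read as expression. When each cell was thinned to 5000 corrected counts, the Mmp14 shares were 0.775% and 0.672% in B-MF against 17.8% and 17.7% in Mo-MF. The thinned shares of Mmp12 did not overlap and those of Plau did, the reverse of the shares before thinning. How many of all genes had thinned shares that did not overlap was not counted.

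Mmp12 was positive in 72.8% and 85.8% of B-MF and 82.5% and 83.7% of Mo-MF cells, although its level in B-MF differed by little between the 2 libraries. Cultured cells were put in 5 bins of near equal size by their number of detected genes. From the bin with the fewest genes (1771 to 2986) to the bin with the most (4359 to 5599), the shares of Mmp12 were 98.8%, 80.9%, 72.8%, 78.2% and 75.3% and the levels 9.45, 11.4, 22.4, 30.2 and 24.2, so the highest share went with the lowest level. Adam8 (99.4%) likewise had its highest share in the bin with the fewest genes. The part of the depth correction in this was not tested, and for these genes the levels and not the shares are read here. Mmp12 too had a count in 96.1% of cluster 7 and 88.4% of cluster 13.

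Levels of some of the genes were also set side by side among the macrophage-like clusters of 1 culture. Clusters 0 and 1 held most B-MF cells, and Mmp12 was 32.4 and 31.2 for B-MF in cluster 0 and 2.31 and 3.26 in cluster 1. Plau followed the same order, at 4.53 and 4.51 in cluster 0 and 1.09 and 1.31 in cluster 1. Timp2 did not, at 14.8 and 14.3 in cluster 0 and 17.1 and 16.4 in cluster 1. The 2 clusters had the same order in both B-MF libraries, and the gap of Mmp12 between the 2 clusters was larger than the one between B-MF and Mo-MF. In Mo-MF, cluster 2, with Arg1 and Fn1 among its leading genes, had the highest Mmp12 (45.0 and 47.7), and cluster 3, led by Bex1 and Apoe, had 11.6 and 12.5. Mmp14 was 1.06 and 1.02 in cluster 2, 1.37 and 1.32 in cluster 3 and 0.353 and 0.291 in cluster 4. Slpi was 0.915 and 0.863 in cluster 2, 2.16 and 1.92 in cluster 3 and 0.111 and 0.140 in cluster 4, so cluster 4 was low for both Mmp14 and Slpi. Clusters were formed from other genes of the same cells, and no test was made between them.

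**Figure D3:**
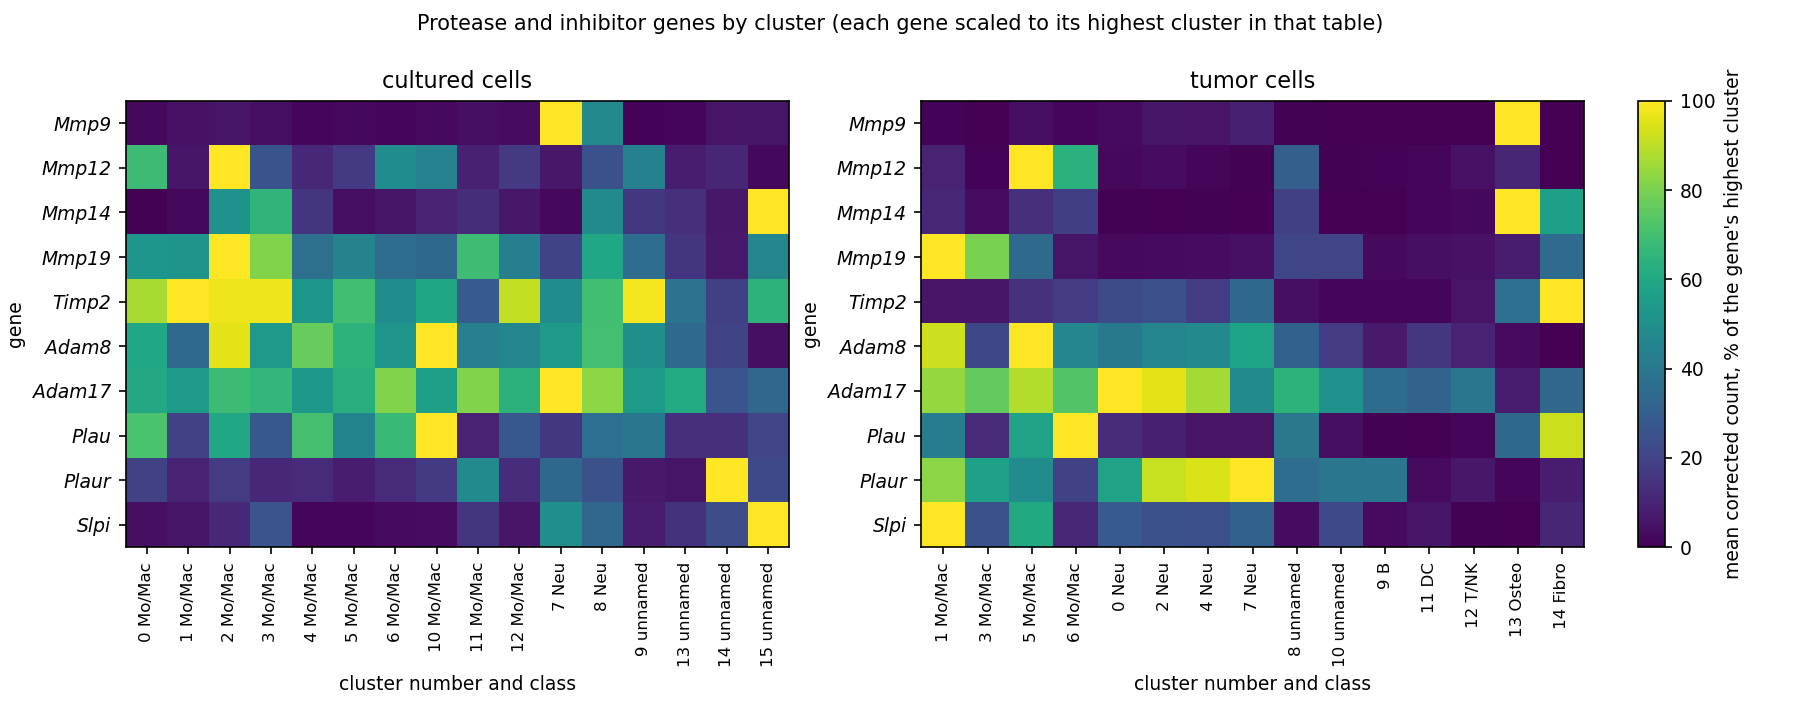
Mean corrected count of the 10 genes (rows) in each cluster (columns, with the cluster number and class) of cultured cells on the left and tumor cells on the right, as a percentage of the gene's highest cluster in that table. Mmp9 peaks in the neutrophil-like cluster 7 of the cultures (9.47) and in the osteoclast-like cluster 13 of the tumors (58.8), and Timp2 is spread over most cultured clusters. The Slpi row of the cultures is scaled to cluster 15 (7.69 over 26 cells), which had 2.8 and 3.4 in its 2 libraries of at least 10 cells.

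The wider set of extracellular proteolysis genes was counted by list. Only genes whose mean reached the filter in both groups were counted, a choice made after seeing the data, and over all such genes the median log2 difference, B-MF minus Mo-MF, was 0.03. Of all such genes 22.5% were called higher and 15.6% lower in B-MF. Of 21 MMP genes 6 could be counted, of which 2 were higher and 4 lower in B-MF with a median of -0.37, and 3 of these 6 are among the 10 genes. The largest differences besides Mmp14 and Mmp9 belonged to Mmp8, the neutrophil collagenase, at 3.78 and 3.84 in B-MF against 6.07 and 5.86 in Mo-MF (log2 difference -0.63, adjusted p = 3.35e-05 by limma). The 2 that were higher in B-MF were Mmp13 and Mmp27, named here because they are the exceptions. Mmp13 was at 0.176 and 0.165 in B-MF against 0.103 and 0.101 in Mo-MF, and Mmp27 was 1.26 and 1.18 against 1.08 and 1.02. Mmp27 lost its call in the macrophage-like clusters (adjusted p = 0.0686 by limma).

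Of 7 inhibitors counted, 5 were higher in B-MF, Slpi was lower and 1 did not pass, with a median of 0.44. Of all genes counted this way, 22.5% were higher in B-MF and 15.6% lower. Timp1, among the 5 inhibitors, did not pass within the macrophage-like clusters (log2 difference -0.05, adjusted p = 0.589 by limma). Serpinb6a, Serpinb6b, Wfdc17 and Wfdc18 passed there as well as over all cells. Another 3 inhibitors reached the filter on low values through Mo-MF alone and are not in this count. Of these, Wfdc21 and Serpinb1a, the latter an inhibitor of neutrophil elastase, had with Slpi the largest differences, and only their levels are given. Wfdc21 was 1.61 and 1.28 in Mo-MF and had no count or almost none in B-MF (0.00420 in replicate 1). Serpinb1a was at 0.0386 and 0.0237 in B-MF against 0.274 and 0.206 in Mo-MF. Both fell under the filter on low values when only macrophage-like clusters were kept, which Slpi did not. Of 8 tested ADAM and ADAMTS genes, Adam15 was higher in B-MF (2.26 and 2.23 against 1.73 and 1.78, log2 difference 0.34, adjusted p = 0.00108 by limma), Adam8 and Adam17 were lower and 5 did not pass. Of 7 plasminogen genes Lrp1, an uptake receptor for Plau in complex with its inhibitors, and Plgrkt, a plasminogen receptor, were higher in B-MF, and Anxa2, which binds plasminogen and its activators, was lower. Lrp1 was at 5.22 and 5.16 in B-MF against 3.48 and 3.44 in Mo-MF, and Plgrkt was 2.05 and 1.88 against 1.42 and 1.44. Of 10 partners and shed targets of ADAM17 counted, 2 were higher (20%) and 3 lower (30%) in B-MF. Over all genes counted, 22.5% were higher and 15.6% lower, and list shares near these are not a result about a list. Csf1r, the M-CSF receptor, was higher, at 11.02 and 10.9 against 5.87 and 5.66. Axl, a receptor tyrosine kinase outside this count, had levels of 0.0630 and 0.0646 in B-MF against 0.327 and 0.312 in Mo-MF. Of 8 matrix genes and receptors counted, 3 were higher and 3 lower, with fibronectin (Fn1) at 0.440 and 0.489 in B-MF against 2.85 and 3.07 in Mo-MF, and thrombospondin 1 (Thbs1) lower as well. Versican (Vcan), outside this count, was at 0.108 and 0.0697 in B-MF against 0.273 and 0.215 in Mo-MF. Of 4 neutrophil serine proteases only Prtn3 could be tested, at 0.117 and 0.0897 in B-MF against 0.644 and 0.705 in Mo-MF. The Mo-MF libraries held 10.5% and 9.41% neutrophil-like cells, and the differences of Mmp8 (-0.37) and Prtn3 (-1.47) on the log2 scale were smaller within the macrophage-like clusters but passed there too.

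In the tumors, all 10 genes were detected in every library. Mmp12 and Plau were found in under 10% of the cells of at least 1 library, and the other genes were not. How many of all genes pass such a cut was not counted, so this is not a result about the 10 genes. The numbers in the table could not be matched to single tumor samples of the labels, so tumor values are given by library, with no SD and no test. Mmp9 was found in 34.9%, 50.7%, 40.4% and 43.7% of the cells of libraries 2 to 5, numbered as in the table, with levels of 2.04, 2.35, 1.96 and 1.83. Slpi was found in 58.7% to 71.2% of cells with levels of 8.41, 6.46, 6.14 and 6.63, and Plaur in 72.3% to 79.3% with levels of 2.64 to 3.41. Adam8 was found in 70.6% to 77.5% of cells, Adam17 in 54.1% to 58.8% and Timp2 in 37.3% to 39.2%, so these 3 varied little between tumors. Mmp12 varied most, with levels of 1.87, 0.661, 1.21 and 0.575 and shares of 18.6%, 6.13%, 11.4% and 7.43%. Mmp14 was 0.785, 0.270, 0.546 and 0.355, and Plau was 0.316, 0.111, 0.203 and 0.146. By level, library 2 was the highest of the 4 for Mmp12, Mmp14, Mmp19 and Plau, and also for Adam8, Slpi and Timp2. By share, library 2 was the lowest of the 4 for Slpi (58.7%), and by little for Timp2 (37.3%). It also had the largest share of monocyte/macrophage-like cells (54.5%, against 29.4%, 40.6% and 33.9% in libraries 3 to 5), and the part of this share in the levels was not tested. Neutrophil-like cells were 35.7%, 62.7%, 47.3% and 55.6% of the cells sorted as TAM.

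RNA from lysed cells can give counts in cells that do not make a gene. In the 243 B-like tumor cells, Mmp14 had a count in 2.06%, Mmp19 in 1.65%, Mmp12 in 3.29%, Mmp9 in 5.35%, Timp2 in 6.17% and Plau in 0.412%. Adam8 was found in 23.05%, Slpi in 26.7%, Adam17 in 31.7% and Plaur in 61.3% of them. The median depth of B-like cells was 7435 to 7716 corrected counts per library, near the 7481.5 to 7517 of neutrophil-like cells and below the 8491.5 to 8539.5 of monocyte/macrophage-like cells. In neutrophil-like cells Mmp14 was found in 1.42% to 3.26%, which is not above the B-like share in every library. For Plaur the shares of 72.3% to 79.3% over all cells stand beside that 61.3%. Other classes had less: Plaur was found in 13.75% of T/NK-like, 9.62% of dendritic-like and 6.06% of osteoclast-like cells. Slpi was found in 6.25%, 9.62% and 3.03% of them. Adam8 (31.25%) and Adam17 (32.5%) were not lower in T/NK-like than in B-like cells. Whether B-like cells make these genes was not tested, so their shares are not read as a floor.

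Within the tumors, each of the 10 genes had the same direction between neutrophil-like and monocyte/macrophage-like cells in 4 of 4 libraries, with 4 genes higher in neutrophil-like cells and 6 lower. Of 5788 genes compared, 19.5% were higher in neutrophil-like cells in all 4 libraries and 70.5% lower, and the median log2 difference of these genes was -0.55. Differences are neutrophil-like minus monocyte/macrophage-like within a library on the scale of log2(level + 0.1), given from the lowest to the highest library.

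Mmp9 was 2.63, 3.01, 2.58 and 2.59 in the neutrophil-like cells of libraries 2 to 5 and 0.886, 0.761, 0.661 and 0.654 in their monocyte/macrophage-like cells, a log2 difference of 1.47 to 1.85. Timp2 was 1.69, 1.15, 1.35 and 1.42 against 0.578, 0.440, 0.561 and 0.463, a log2 difference of 1.13 to 1.43. For both genes every neutrophil-like value was above every monocyte/macrophage-like value. Plaur differed by 0.22 to 0.48 and Adam17 by 0.05 to 0.34 on the log2 scale. Plaur was 3.20 to 4.10 in neutrophil-like and 2.41 to 3.18 in monocyte/macrophage-like cells. Adam17 was found in fewer neutrophil-like cells (49.5% to 57.0%) than monocyte/macrophage-like cells (61.9% to 69.3%) although its level was higher, so no order is read from its shares.

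On the other side, Mmp19 was 0.0582, 0.0578, 0.0762 and 0.0791 in neutrophil-like cells and 1.52, 1.47, 1.43 and 2.14 in monocyte/macrophage-like cells, a log2 difference of -3.64 to -3.12. Mmp12 was 0.216, 0.191, 0.151 and 0.131 against 2.95, 1.69, 2.53 and 1.33, a log2 difference of -3.39 to -2.62. Mmp14 was 0.0241 to 0.0467 in neutrophil-like and 0.713 to 1.02 in monocyte/macrophage-like cells, a log2 difference of -3.02 to -2.71. These 3 MMPs were thus at or near 0 in neutrophil-like cells, and the size of such a difference depends on the pseudocount. Averaged over libraries, Mmp14 was at -2.85 with the pseudocount of 0.1, at -4.35 with 0.01 and at -0.85 with 1, and Mmp19 was at -3.36, -4.40 and -1.30. Plau differed by -1.88 to -0.79, Slpi by -1.31 to -0.94 and Adam8 by -0.74 to -0.53 on the log2 scale. Slpi was 4.66 to 5.11 in neutrophil-like cells and 9.25 to 11.98 in monocyte/macrophage-like cells, although its share of positive cells was higher in the former (73.3% to 78.5% against 56.7% to 70.1%).

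**Figure D4:**
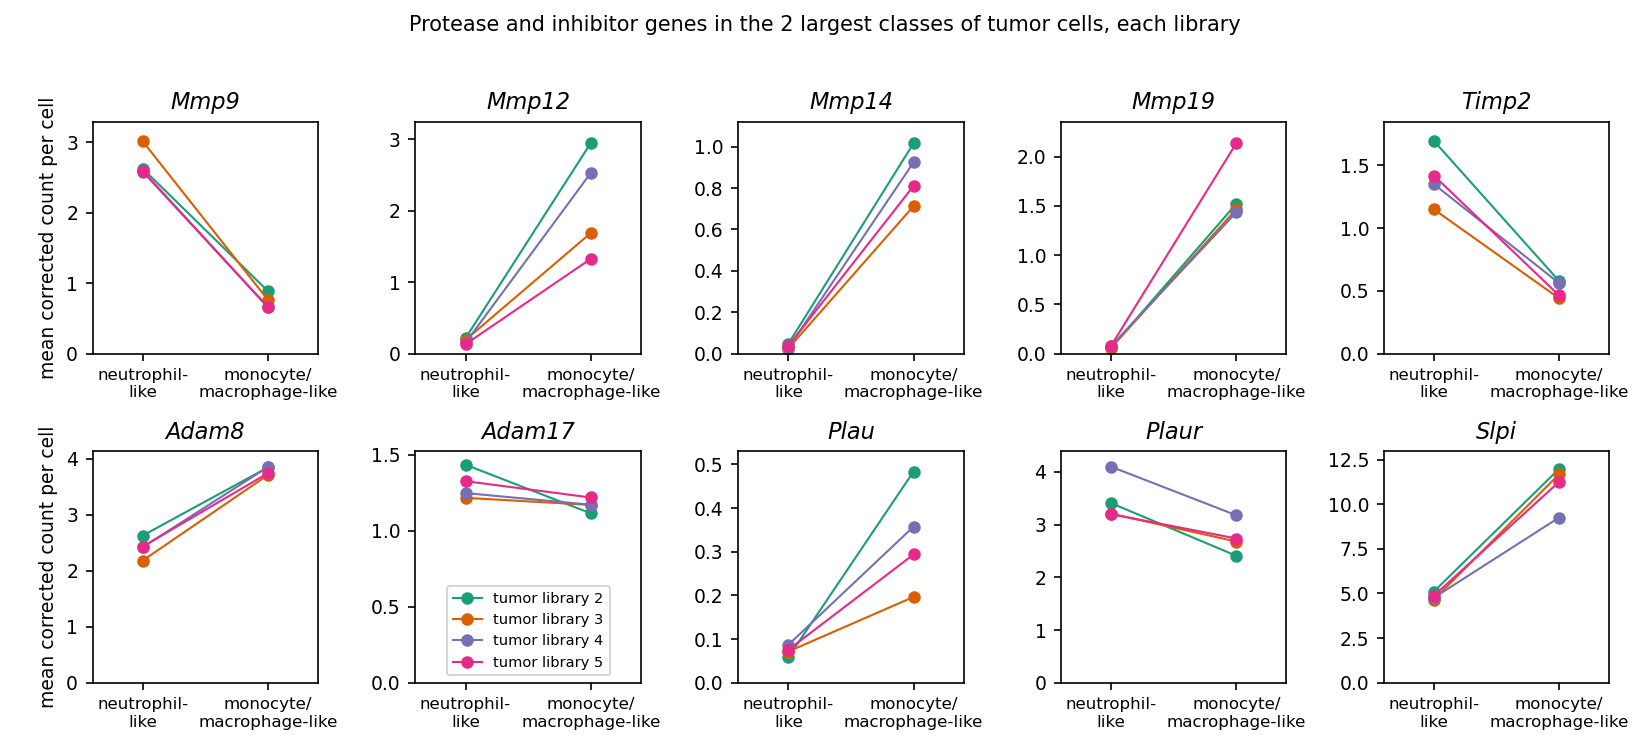
Mean corrected count per cell of the 10 genes in neutrophil-like and monocyte/macrophage-like cells of each tumor library, with 1 panel per gene, its own axis from 0, and lines joining the 2 classes of 1 library. Lines fall for Mmp9 (2.63 to 0.886 in library 2) and Timp2, rise for Mmp12, Mmp14 and Mmp19, and for Adam17 fall by the most in library 2 (1.43 to 1.11).

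When clusters closer to monocytes were left out and those with macrophage markers kept, Slpi and Adam17 no longer had 1 direction in every library. Slpi was lower in the neutrophil-like cells of 3 of 4 libraries (average log2 difference -0.42). Adam17 was higher in 3 of 4 (average 0.13). How many of all genes had 1 direction in this setting was not counted. The average for Timp2 went from 1.30 to 0.57 in that setting and the average for Plaur from 0.33 to 1.055. The average for Mmp9 went from 1.74 to 0.85 and that for Mmp19 from -3.36 to -1.91.

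Levels also differed among the tumor monocyte/macrophage-like clusters, of which 1 and 3 were closest to monocytes and 5 and 6 to macrophages by their markers. Mmp12 was 5.18 to 9.29 per library in cluster 5, which was led by Arg1, Pf4 and Ccl24, and 1.80 to 5.42 in the C1q-rich cluster 6. It was 0.515 to 0.762 in cluster 1 and 0.0232 to 0.118 in the Ccr2-rich cluster 3. Mmp19 was at 1.91 to 2.77 in cluster 1, 1.04 to 2.60 in cluster 3, 0.724 to 0.941 in cluster 5 and 0.1 to 0.25 in cluster 6. Slpi was 15.1 to 19.96 in cluster 1 and 1.51 to 2.88 in cluster 6, and Adam8 was 4.88 to 5.01 in cluster 1 and 0.951 to 1.24 in cluster 3. Plau was 0.411 to 0.897 in cluster 6 and 0.261 to 0.520 in cluster 5. The ranges over libraries overlapped between clusters 5 and 6 for Mmp12 and Plau, and between clusters 1 and 3 for Mmp19. Within every library, Mmp12 was higher in cluster 5 than in cluster 6 and Plau was lower. Mmp19 was higher in cluster 1 than in cluster 3 within every library. How many of all genes kept 1 order was not counted. No test was made between clusters.

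Small cell groups had the highest levels of 3 genes in the tumors. The osteoclast-like cluster 13, named from markers such as Ctsk and Acp5, held 66 cells, all of which had counts of Mmp9 and of Mmp14. Mmp9 was 68.7, 55.4 and 38.1 and Mmp14 was 8.26, 9.32 and 6.33 in the 3 libraries with at least 10 such cells. Among neutrophil-like clusters Mmp9 was highest in cluster 7, led by granule genes such as Ngp, Camp and Ltf (4.74 to 6 per library). Timp2 was highest in the 17 fibroblast-like cells (5.88) and Mmp14 was 4.59 there, but only 1 library held at least 10 of these cells. Plaur was 3.84 to 4.73 in cluster 7 and 0.673 to 1.35 in cluster 6.

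Neutrophil-like and monocyte/macrophage-like cells were present in the Mo-MF cultures too, which lets the 2 settings be set side by side. Mmp9 was higher in neutrophil-like cells in both, by log2 differences of 3.98 and 3.82 in the 2 Mo-MF libraries and of 1.47 to 1.85 in the tumors. Mmp12 was lower in them in both, by -2.005 and -1.45 in Mo-MF and -3.39 to -2.62 in tumors. Mmp14 was lower by -1.07 and -0.53 in Mo-MF and by -3.02 to -2.71 in tumors, and Mmp19 by -0.83 and -0.70 against -3.64 to -3.12. Timp2 and Slpi had opposite directions in the 2 settings. Timp2 was lower in neutrophil-like cells of Mo-MF (-0.56 and -0.46) and higher in those of tumors (1.13 to 1.43), while Slpi was higher in Mo-MF (1.36 and 1.56) and lower in tumors (-1.31 to -0.94). In the cultures Timp2 had a count in 100% of the cells of neutrophil-like cluster 7, a share not read as expression. The part of RNA from lysed cells in its levels there was not tested. With the tumor clusters of macrophage markers alone, Slpi was lower in 3 of 4 libraries only (average -0.42). The difference between settings was not tested. The 2 neutrophil-like clusters of the cultures stood apart from each other, and the class pools them. Mmp14 was 0.769 and 1.16 in cluster 8 against 0.0606 and 0.0200 in cluster 7, Mmp12 was 8.82 and 14.4 against 2.96 and 2.98, and Mmp19 was 0.543 and 0.572 against 0.197 and 0.184.

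The ATAC-seq peak lists show whether the start of each gene was open in BMBP. A peak was counted for a gene if it overlapped the window of 1000 bases on either side of an annotated transcription start. The lists give each peak's fold enrichment over background and no read counts, so the depth of single libraries is unknown and fold values were compared without a test. In a sorted population a fold value does not separate the number of open cells from the openness of each. The lists held 65832 to 76530 peaks per BM library and 43407 to 50392 per spleen library. By the GENCODE annotation of GRCm38, Mmp9 (chr2:164948219-164955850, plus strand) and Slpi (chr2:164354070-164356507, minus strand) lie on 1 chromosome, as do Adam8 (chr7:139978932-139992562, minus strand) and Plaur (chr7:24462484-24475967, plus strand), and Mmp14 (chr14:54431612-54445364, plus strand) and Plau (chr14:20836660-20843385, plus strand). Mmp12 is at chr9:7344397-7369499, plus strand, Mmp19 at chr10:128790910-128800824, plus strand, Timp2 at chr11:118301069-118355506, minus strand, and Adam17 at chr12:21323509-21373632, minus strand. No start of another protein-coding gene lay within 1000 bases of their starts.

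Mmp14, Timp2, Adam8, Adam17, Plau and Plaur had a promoter peak in all 12 libraries, as did 50.3% of 21851 protein-coding genes. Mmp12 and Mmp19 had one in none, as did 36.3% of genes. Beside the RNA of the cultures, Mmp14, near 0 in B-MF, was among the genes with a peak within 1000 bases of their start in every BMBP library, though in 2 of 12 with the narrow window given below, and Mmp12, at 17.1 and 17.3 in B-MF, was among those with no called peak. The ATAC-seq cells came from naïve mice and were not cultured, and the assays were not tested against each other. Mmp9 had a peak in 2 libraries, CSF1R- BM replicates 1 and 3, at low fold enrichment (3.85 and 3.84). Slpi had a peak in 6 of 6 BM libraries (fold 14.3 to 18.7) and in 1 of 6 spleen libraries, CSF1R+ replicate 3 (fold 6.15), a pattern of all 6 BM and at most 1 spleen library shared by 4.01% of genes. None of the 10 genes had a peak in all 3 libraries of CSF1R+ and none of CSF1R- cells, or the reverse, in BM or spleen, patterns that held for 0.00458% to 0.0824% of genes.

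For Adam8 the fold enrichment was 18.7, 15.3 and 16.3 in CSF1R- and 15.3, 14.8 and 16.7 in CSF1R+ cells of BM, and 9.35, 8.69 and 9.88 in CSF1R- and 9.46, 5.70 and 12.9 in CSF1R+ cells of spleen. Every BM library was above every spleen library, as for 4.79% of the 10985 genes with a peak in all libraries, and the reverse held for 24.8%. Adam17 was 21.3 to 24.2 in BM and 21.6 to 25.3 in spleen, and Timp2 was 16.5 to 22.4 in BM and 16.8 to 26.8 in spleen, so for both the tissues overlapped. Plau (12.6 to 17.9), Plaur (5.10 to 8.98) and Mmp14 (4.09 to 12.8) overlapped between tissues too. The Mmp14 peak lay up to 652 bases from the nearest annotated start, and with a narrow window of 250 bases before to 50 bases after the start it was counted in 2 libraries only.

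**Figure D5:**
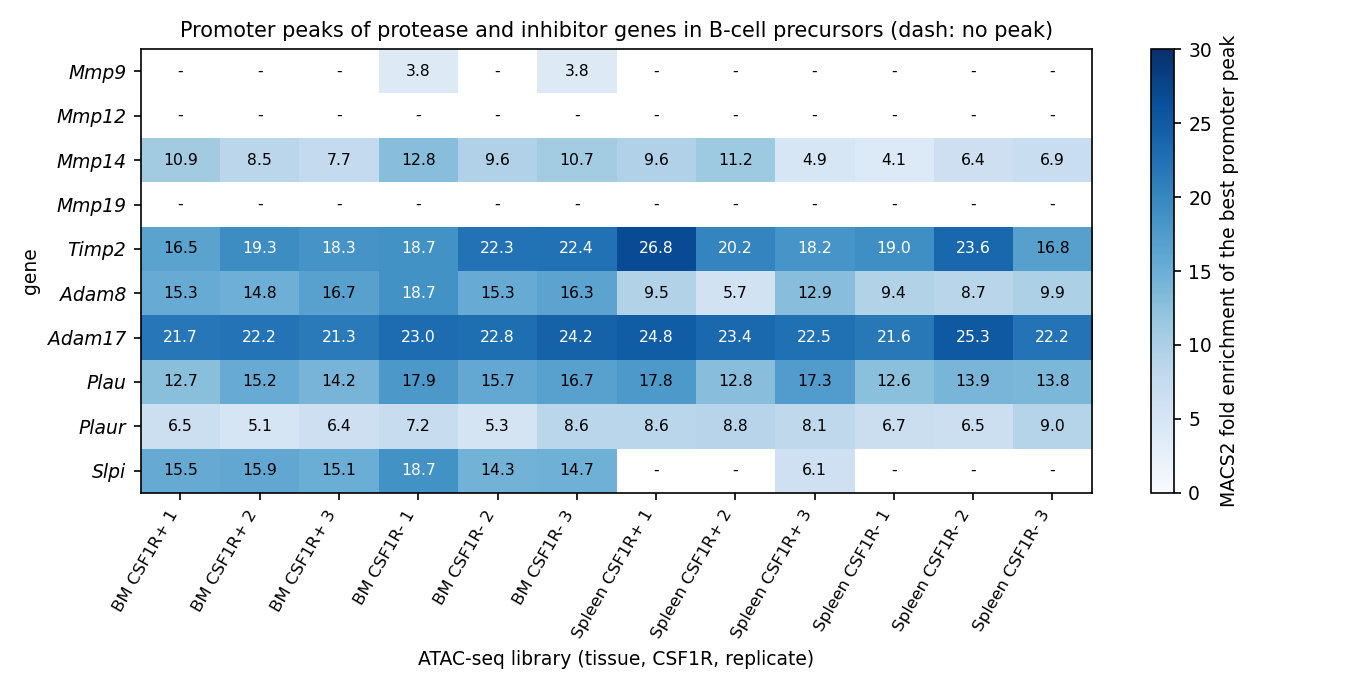
Fold enrichment of the promoter peak of the 10 genes (rows) in each of the 12 ATAC-seq libraries (columns, BM and spleen, CSF1R+ and CSF1R-), with empty cells where no peak was called. Mmp12 and Mmp19 are empty throughout, and Slpi is filled in the 6 BM libraries (14.3 to 18.7) and 1 spleen library.

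Promoter sequences are shown for 5 genes that stand for the patterns above, with capitals marking CG dinucleotides, which are common in promoters that are open in many cell types. They are the 250 bases before the RefSeq transcription start, read 5′ to 3′ on the gene's strand in GRCm38.p6. Timp2 is shown as open in all libraries with a CG-rich promoter (chr11:118355412-118355661, minus strand, 21 CG), Mmp14 as having a peak within 1000 bases in all but in the narrow window in 2 (chr14:54431348-54431597, plus strand, 10 CG), Adam8 as stronger in BM (chr7:139992563-139992812, minus strand, 6 CG), Slpi as called in BM (chr2:164356508-164356757, minus strand, 2 CG), and Mmp12 as called in no library (the entry at chr9:7347124-7347373, plus strand, 2 CG, 1 of 2 entries for this gene).
Timp2: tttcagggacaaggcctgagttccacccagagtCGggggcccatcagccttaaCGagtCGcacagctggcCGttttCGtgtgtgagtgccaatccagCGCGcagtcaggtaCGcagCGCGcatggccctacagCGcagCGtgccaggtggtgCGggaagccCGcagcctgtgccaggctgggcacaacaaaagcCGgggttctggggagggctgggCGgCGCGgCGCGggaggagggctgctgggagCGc
Mmp14: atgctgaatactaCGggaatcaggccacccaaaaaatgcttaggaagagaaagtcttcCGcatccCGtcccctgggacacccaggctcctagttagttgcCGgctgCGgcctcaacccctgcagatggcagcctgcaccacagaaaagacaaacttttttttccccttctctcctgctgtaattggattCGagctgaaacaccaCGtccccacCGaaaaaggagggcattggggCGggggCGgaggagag
Adam8: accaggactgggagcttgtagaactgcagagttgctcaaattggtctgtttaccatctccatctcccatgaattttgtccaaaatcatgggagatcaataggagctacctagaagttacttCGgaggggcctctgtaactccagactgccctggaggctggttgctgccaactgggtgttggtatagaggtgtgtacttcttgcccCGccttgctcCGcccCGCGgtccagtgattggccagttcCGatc
Slpi: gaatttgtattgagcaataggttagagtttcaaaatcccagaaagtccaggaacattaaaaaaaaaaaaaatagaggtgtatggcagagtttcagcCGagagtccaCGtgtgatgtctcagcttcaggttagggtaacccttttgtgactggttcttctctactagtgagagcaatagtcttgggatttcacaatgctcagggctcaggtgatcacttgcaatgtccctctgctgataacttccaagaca
Mmp12: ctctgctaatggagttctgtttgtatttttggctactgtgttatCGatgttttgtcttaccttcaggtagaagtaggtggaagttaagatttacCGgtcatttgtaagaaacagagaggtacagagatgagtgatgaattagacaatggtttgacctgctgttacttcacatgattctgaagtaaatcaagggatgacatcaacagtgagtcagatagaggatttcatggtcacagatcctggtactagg

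Adam17 had 23 CG in its promoter, Plaur had 6, and the other entry of Mmp12 had 0. The median over 32851 promoters of the same length was 6. It was 16 for the 8698 matched genes with a peak in all 12 libraries and 2 for the 5642 matched genes with a peak in none. Mmp14, Adam8 and Plaur, with a peak in all 12 libraries, were thus below the median of that group, and Slpi and Mmp12 were at or below the median of the group without peaks. The AP-1 motif TGANTCA, searched on both strands, was found in the promoter of Plaur (TGACTCA, 69 to 63 bases before the start) and in the printed entry of Mmp12 (TGAGTCA, 44 to 38 bases before the start). It was held by 6.75% of all promoters, 3.62% of those of genes with a peak in all 12 libraries and 10.1% of those without one. These matches describe letters in a window and not bound sites. Promoter entries of 7 of the 10 genes were matched by symbol, and Mmp9, Mmp19 and Plau had none in the table used.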

How the data were processed

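The 10 genes and the lists were chosen with earlier results of these data known. For scRNA-seq (10x Chromium 3' kit, v3.1), the authors counted transcripts with Cell Ranger 5.0, kept cells with at least 1000 genes and genes found in more than 3 cells (the deposited tumor values hold cells with as few as 848), and corrected the counts with SCTransform in Seurat 4.0. The deposited values are the natural log of 1 plus the corrected count, and all were whole within 1e-06 after conversion. For ATAC-seq, the authors trimmed reads with cutadapt, aligned them to mm10 with BWA and called peaks with MACS2 in each library. The deposited lists give peak positions, fold enrichment and −log10 of p and q values. A union list and count models were not used.

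Levels were averaged per library, and log2(level + 0.1) was fitted with limma 3.58.1 (R 4.3.3) for the 8633 genes whose mean reached 0.1, and p-values were adjusted by Benjamini-Hochberg with a threshold of 0.05. The fit was tested on simulated data. Cells were clustered (Python 3.11.15, scikit-learn 1.9.0, leidenalg 0.10.2) on 30 principal components of 2000 variable genes, 20 neighbours and a resolution of 0.5, without the genes of the proteolysis lists. A cluster was named if at least 5 markers of a type were detected and 50% of these exceeded their average across clusters, by a rule set after seeing the clusters. The numbers of the tumor columns, 2 to 5, do not match those of the labels, so tumor libraries are given as values and the planned permutation test over them is not printed. No doublet caller was run and doublets were not removed. All 10 genes were named by rule, and of each list the 3 genes with the largest difference past the threshold. Mmp13, Mmp27 and the inhibitors higher in B-MF were added after their values were seen. A gene that this rule names is not reported here. Gene starts were taken from GENCODE vM21 basic annotation of GRCm38 and promoters from RefSeq.

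Whether replicate numbers pair the cultures cannot be told from 2 pairs (correlation of the deviations over genes 0.126), and the fit reported had no replicate block. Alternatives were the pseudocount, the filter, scaling, the variance prior, the cells included, clustering, peak thresholds and windows, and leaving out each library.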

Additional observations from a re-analysis of the deposited data

Results flagged for a closer look

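Among the 4 tumor libraries, 60 sets of values of the 10 genes were searched for a library standing apart from the other 3, and 4 were found, while chance flags about 1 in 20 sets. Mmp9 in neutrophil-like cells was 3.01 in library 3, above 2.58 to 2.63 in the others. Mmp19 in monocyte/macrophage-like cells was 2.14 in library 5, above 1.43 to 1.52. The share of neutrophil-like cells with a count of Plau was 4.96% in library 4, above 3.79% to 3.99%. The share of all cells with Plaur was 79.3% in library 4, above 72.3% to 73.4%.

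Timp2 and Slpi were flagged because their difference between neutrophil-like and monocyte/macrophage-like cells had opposite signs in the Mo-MF cultures and in the tumors. For Timp2 the value nearest to 0 was -0.46 in Mo-MF and 1.13 in tumors on the log2 scale. Timp2 had a count in 100% of the cells of neutrophil-like cluster 7 of the cultures, and the part of RNA from lysed cells in this was not tested. For Slpi it was 1.36 in Mo-MF and -0.94 in tumors. With the tumor clusters of macrophage markers alone, Slpi was lower in neutrophil-like cells in 3 of 4 libraries only, with an average of -0.42. The difference between cultures and tumors was not tested.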

How the results depend on the processing

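Over the alternatives tried, 5 to 9 of the 10 genes passed the threshold in the cultures, against 7 in the fit reported. Slpi, Adam8, Mmp19 and Mmp12 passed in every alternative run. These counts include Mmp14, whose calls in fits with a filter are not read as support. Leaving out 1 library at a time gave 6 to 9 genes, with the lone library of a group assumed to vary like the others. Over all genes, the number called higher in B-MF ran from 1112 to 3854 and the number called lower from 863 to 2950 when 1 library was left out, against 1955 and 1458. With a replicate block, whose pairing is not known, 7 genes passed, and 2238 genes were higher and 1670 lower. The block thus changed no count by over 1.5 times. Adam17 also lost its call with a pseudocount of 0.01 (adjusted p = 0.0531 by limma), and Timp2 gained one with a pseudocount of 1, no filter, scaling to the same library total, a variance prior with trend and the mean of the natural log values (adjusted p 2.29e-11 to 0.0362 by limma). Plau and Plaur, which did not pass in the fit reported, changed sign. Plau went to -0.0488 in macrophage-like clusters, -0.0592 without cluster 5 as well and -0.0147 as a difference of natural log values. Plaur went to 0.00994 without cluster 5. The share of Plau changed sign with at least 2 counts per cell, to 1.03 percentage points higher in B-MF. In the tumors, other clustering resolutions and pseudocounts left all 10 genes with 1 direction in every library. The share of all genes with 1 direction was not counted in these settings. A promoter peak in every library was found for 6 genes, for 5 at a −log10 q of at least 5, and for 5 in the narrow window. The causes of these changes were not tested. Precision is limited by 2 libraries per culture, by corrected counts that no longer show each cell's depth, and by unknown depth of the ATAC-seq libraries.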

Other observations

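For each of the 10 genes, the gene with the most similar pattern in the tumors was sought over 24 points, 6 cell classes in each of 4 libraries, by Pearson's r of the log2 levels. The points of 1 library share its cells and depth, so r is given as a description with no p. Unnamed and fibroblast-like cells were left out. Mmp14 was most like Ocstamp (r = 0.977), a gene of osteoclast fusion, and Mmp9 was most like Atp6ap2 (r = 0.966). Ocstamp was among the markers that named the osteoclast-like class, where Mmp14 was highest (8.08), so this match is not independent of the naming. Plaur was most like Gch1 (r = 0.946), Adam8 like Ccl6 (r = 0.940), Slpi like Il1a (r = 0.935), Mmp12 like Mmp13 (r = 0.924), Plau like Grn (r = 0.921), Adam17 like Bcl2l11 (r = 0.918), Mmp19 like Plcb1 (r = 0.917) and Timp2 like Map2k3 (r = 0.886).

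Of the proteolysis lists in the tumors, 6 MMP genes passed the filter on low values, of which 2 were higher and 4 lower in neutrophil-like cells in all 4 libraries, with a median log2 difference of -2.44 beside -0.55 over all genes, of which 19.5% were higher and 70.5% lower. Of 8 inhibitors 4 were higher and 4 lower (median -0.05), and of 8 plasminogen genes 2 were higher and 6 lower (median -0.72). Shares near those of all genes are not a result about a list. The filter was on the mean of both classes, so a gene near 0 in 1 class could pass through the other, and these counts and medians are a description only.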
